A study of Mustela putorius furo and Mus musculus with 4 samples.

Results

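Fatty acid oxidation and ketone metabolism genes were compared between cultured ferret astrocytes and cultured mouse astrocytes, with 2 RNA-seq libraries of each species. The list held 40 genes, set by symbol for their role in these pathways, with earlier results of these data known. Of these, 34 had a value in both species, out of 13373 symbols shared by the species, and all 34 passed the filter on low values. The remaining 6 genes had no entry under their symbol in the ferret values, which held 14584 symbols against 55139 for the mouse. They have a mouse value only and were not compared, and their level in ferret astrocytes is unknown here. The ferret cultures came from the cerebral cortex of normally pigmented sable ferrets on postnatal day 1, and the mouse cultures from wild-type ICR mice on postnatal days 1 to 3. No transgene or drug treatment is described for the sequenced cells of either species. They grew in serum for 14 days as mixed glia, were shaken for 12 h to remove other cells, and were replated in serum. Before RNA was taken they were kept in serum-free medium with heparin-binding EGF-like growth factor, progesterone, N-acetyl cysteine, transferrin and other supplements. In the culture procedure of the study a mouse flask pooled several pups, whereas 1 ferret pup supplied several flasks. The sources do not say whether the duplicate libraries came from separate cultures, so p-values measure only the spread between these libraries.

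Long-chain fatty acids are used as fuel only after they are linked to coenzyme A and carried into mitochondria as carnitine esters. There, acyl-CoA dehydrogenases start each round of shortening and pass their electrons to electron transfer flavoprotein, while later enzymes hydrate, oxidize and cleave the chain. Peroxisomes shorten very long chains first. Ketone bodies made from the product, acetyl-CoA, serve the brain as an alternative to glucose, above all in suckling animals. Astrocytes are the cells of the brain best known for fatty acid oxidation.

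Levels are given as FPKM, a fragment count divided by transcript length and library size, as deposited for each library. Differences are ferret minus mouse on the log2(FPKM + 1) scale with their standard error (SE), which understates the change of low genes, and folds are ratios of mean FPKM. A gene was called higher or lower in ferret astrocytes at a Benjamini-Hochberg adjusted p under 0.05 over all 10204 genes tested with limma, together with a difference above 1 in either direction. For a single value, the smallest two-sided p of an exact permutation test is 0.333 with 2 libraries in each species, so none was run. Species, genome annotation and culture cannot be told apart in this design, since each species was quantified on its own gene models.

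Among the 34 genes compared, 5 were called higher and 16 lower in ferret astrocytes. This is 14.7% and 47.1% of the genes, where 13.1% and 30.1% of all tested genes were called higher and lower. The genes called higher were Ehhadh, Acsl1, Acat1, Slc25a20 and Acsl4. The largest differences in the other direction were those of Acadl, Acsbg1, Oxct1 and Bdh1, from 12.0-fold (Oxct1) to 57.8-fold (Acadl) lower in ferret astrocytes. At the adjusted p alone, 31 of the 34 genes differed, against 88.6% of all tested genes, so the adjusted p by itself separates few genes here. The same holds for an unadjusted p under 0.05 by limma. At that limit 3317 of the 10204 tested genes were higher and 5762 lower in ferret astrocytes. In 12 genes both ferret libraries lay above both mouse libraries, as in 35.1% of all tested genes, and in 21 genes they lay below, as in 59.0%. The median difference of the 34 genes was -0.76, against -0.35 for all tested genes.

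**Figure D1:**
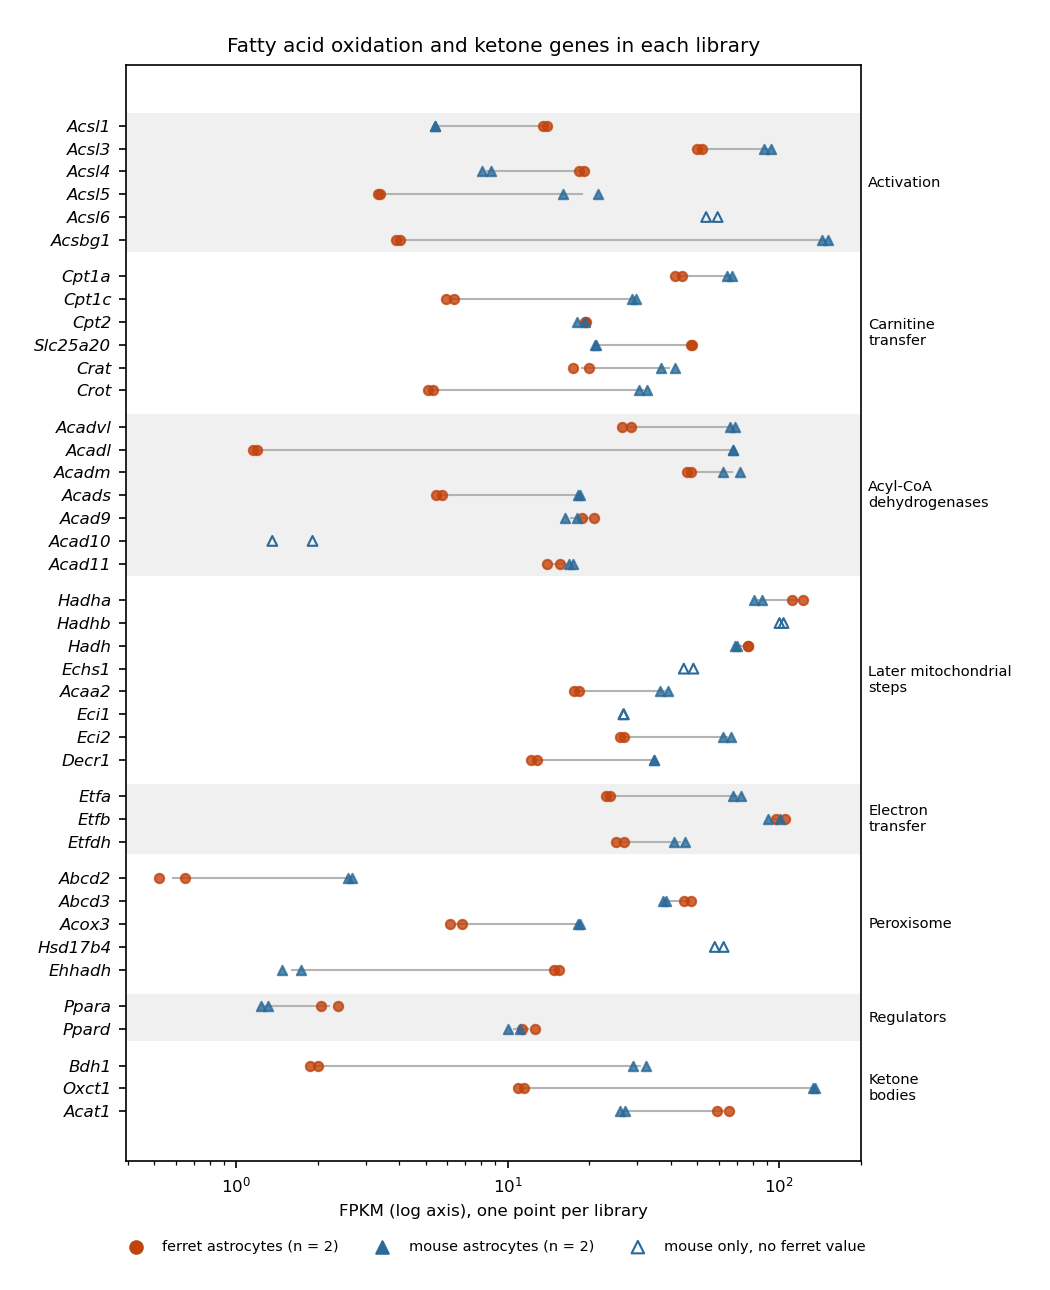
FPKM of each gene in each library on a log axis, ordered by metabolic step, with ferret libraries as circles and mouse libraries as triangles. Lines join the species means, and open triangles mark the 6 genes with a mouse value only. The points of a species lie close together, and the widest gaps between species are those of Acadl, Acsbg1, Oxct1, Bdh1 and Ehhadh.

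The scaling between species moved these counts. Over the shared symbols, the FPKM of a ferret library summed to 227391 or 236543 and that of a mouse library to 300465 or 308121. With all 4 sums made equal, 5 of the 34 genes were called higher and 11 lower, against 19.3% and 21.7% of all tested genes. After quantile normalization 5 were called higher and 10 lower, against 20.6% and 20.4%. The share of higher genes among all calls was 30.3% as deposited, 47.0% with equal sums and 50.2% after quantile normalization. The median difference of all tested genes moved from -0.35 to -0.0019 and 0.08, and that of the 34 genes from -0.76 to -0.38 and -0.40. The 5 genes called higher were the same 5 under each scaling, which is no sign of stability, since both scalings move all differences towards the ferret. The calls that were lost with either scaling were those of Acadvl, Acaa2, Eci2, Crat and Abcd2, and after quantile normalization also that of Acox3. With equal sums the first 5 had differences from -0.98 (Abcd2) to -0.65 (Crat).

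**Figure D2:**
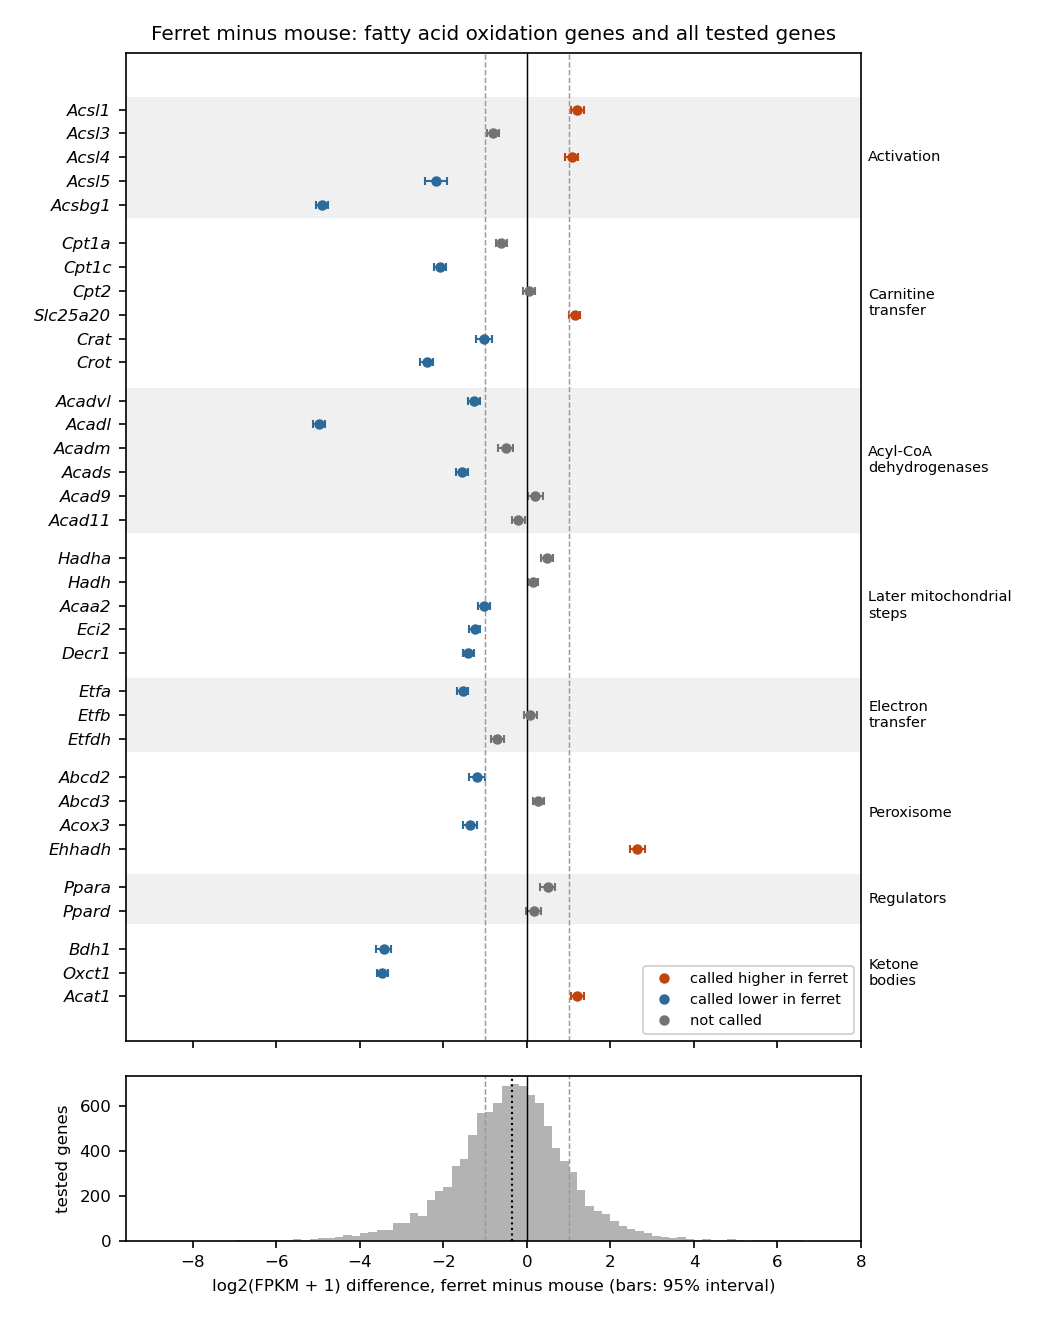
Upper panel, ferret minus mouse difference on the log2(FPKM + 1) scale for the 34 genes with 95% intervals from limma, coloured by call, with dashed lines at a difference of 1 in either direction. Lower panel, the number of all 10204 tested genes at each difference, with their median of -0.35 dotted. The 4 lowest genes lie between -4.99 and -3.43, on the left flank of the histogram.

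All 3 ketone body genes compared were called, 1 higher and 2 lower in ferret astrocytes, against 13.1% and 30.1% of all tested genes. Oxct1 encodes the mitochondrial enzyme that activates acetoacetate with coenzyme A from succinyl-CoA, the step that commits ketone bodies to use as fuel. Ferret astrocytes had 10.97 and 11.54 FPKM, and mouse astrocytes had 133 and 136. Both mouse libraries stood above both ferret libraries, and the mean was 12.0-fold lower in ferret astrocytes, a difference of -3.47 (SE 0.0588, adjusted p = 3.61e-11 by limma). Bdh1 encodes the dehydrogenase that interconverts 3-hydroxybutyrate and acetoacetate. It had 1.87 and 2.01 FPKM in ferret and 29.1 and 32.3 in mouse astrocytes, a difference of -3.43 (SE 0.0769, adjusted p = 1.54e-10 by limma). Acat1, whose thiolase cleaves acetoacetyl-CoA into acetyl-CoA and also serves isoleucine breakdown, went the other way. Its FPKM was 58.9 and 65.7 in ferret and 25.9 and 27.1 in mouse astrocytes, a difference of 1.20 (SE 0.0685, adjusted p = 8.12e-08 by limma). None of the 3 genes overlapped between species, which is common here. Of all tested genes, 35.1% had both ferret libraries above both mouse libraries and 59.0% had them below.

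The balance of the 3 ketone genes therefore differed within libraries, where the scaling of a library cannot move it. Acat1 stood at 5.37 and 5.70 times the FPKM of Oxct1 in the ferret libraries and at 0.194 and 0.199 times in the mouse libraries. Of the summed FPKM of Acat1, Oxct1 and Bdh1, Acat1 made up 82.1% and 82.9% in ferret and 13.8% and 13.9% in mouse astrocytes. Oxct1 made up 15.3% and 14.6% in ferret against 70.8% and 69.6% in mouse astrocytes. Among all shared symbols of its library, Oxct1 lay at the 68.9th and 69.6th percentile in the ferret and at the 97.6th in both mouse libraries. Mouse Oxct1 spans chr15:4026383-4155344 of GRCm38 (plus strand, 20 exonic regions) and Bdh1 spans chr16:31422280-31458901 (plus strand, 11 exonic regions). Genes on the opposite strand share 12.6% of the exonic bases of Oxct1 and 13.7% of those of Bdh1. The kit marks strand, but whether the FPKM used strand is not given in the sources used here. Mouse Acat1 spans chr9:53580522-53610382 (minus strand, 12 exonic regions) and shares no exonic base with another gene.

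Among the 5 acyl-CoA synthetases compared, which activate fatty acids, 2 were called higher and 2 lower in ferret astrocytes. Of all tested genes, 13.1% were called higher and 30.1% lower. Acsbg1, the bubblegum-type synthetase of brain, adrenal gland and testis, had 3.88 and 4.02 FPKM in ferret and 143 and 151 in mouse astrocytes. This was 37.3-fold lower in ferret astrocytes, a difference of -4.90 (SE 0.0615, adjusted p = 8.15e-12 by limma). Acsl5, a synthetase of the mitochondrial outer membrane and endoplasmic reticulum, was lower as well, at 3.40 and 3.34 against 21.6 and 16.0 FPKM. The mouse duplicates of Acsl5 lay further apart than those of any other gene of the list, by 0.41 on the log2 scale. Both still lay above both ferret libraries, as in 59.0% of all tested genes. Acsl1 and Acsl4 were called higher in ferret astrocytes. Acsl1, a major synthetase of oxidizing tissues, had 14.0 and 13.5 FPKM in ferret and 5.40 in both mouse libraries. Acsl4, which prefers arachidonic acid, had 19.2 and 18.3 FPKM in ferret and 8.73 and 8.07 in mouse astrocytes. Acsl3, a synthetase of the endoplasmic reticulum and lipid droplets, was the highest of the synthetases compared in ferret astrocytes. It had 52.2 and 50.1 FPKM there, against 87.8 and 93.8 in mouse astrocytes. Its difference of -0.82 stayed under the limit for a call.

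As shares of the summed FPKM of Acsl1, Acsl3, Acsl4, Acsl5 and Acsbg1, Acsl3 made up 56.3% and 56.1% in ferret libraries and 32.9% and 34.2% in mouse libraries. Acsbg1 took 53.7% and 55.0% of the mouse sum and 4.19% and 4.50% of the ferret sum. Acsl4 took 20.7% and 20.5% in ferret against 3.27% and 2.94% in mouse astrocytes. Among the synthetases compared, the leading one was thus Acsl3 in ferret and Acsbg1 in mouse astrocytes in each library. Acsl6, a synthetase enriched in brain and linked to docosahexaenoic acid, had 53.9 and 59.4 FPKM in the mouse libraries. It had no ferret value and is left out of these sums, so its place among the ferret synthetases is unknown. Mouse Acsbg1 spans chr9:54604877-54661870 of GRCm38 (minus strand), with 18 exonic regions and no exonic base shared with another gene.

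**Figure D3:**
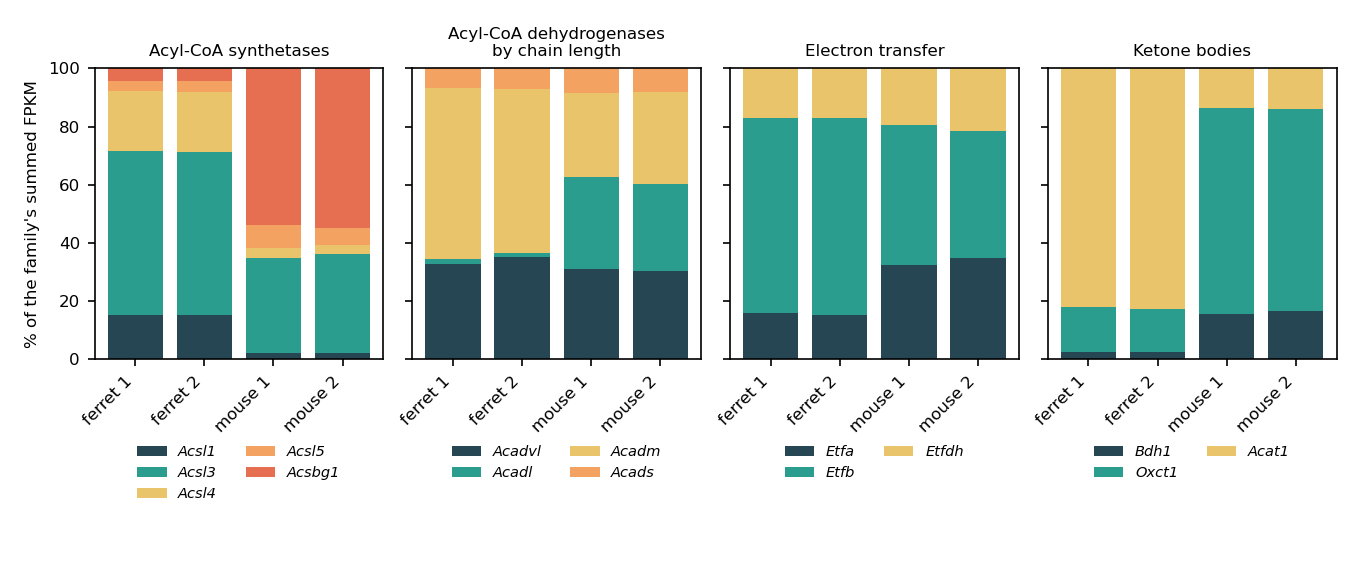
Share of each gene in the summed FPKM of its family, in percent, with 1 bar per library, for the acyl-CoA synthetases, the acyl-CoA dehydrogenases that differ in chain length, the electron transfer flavoprotein system and the ketone body genes. Duplicates of a species look alike, and the largest changes of share between species are those of Acsbg1, Acadl, Acadm, Oxct1 and Acat1.

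Of the 6 carnitine transfer genes, 1 was called higher and 3 lower in ferret astrocytes, against 13.1% and 30.1% of all tested genes. Cpt1a, the liver-type carnitine palmitoyltransferase that controls entry into mitochondria, had 41.2 and 44.1 FPKM in ferret and 64.1 and 67.1 in mouse astrocytes, a difference of -0.61 that was not called. Cpt1c, a brain paralog in the endoplasmic reticulum with little acyltransferase activity, had 5.91 and 6.36 FPKM against 28.8 and 29.7. Its difference of -2.08 (SE 0.0671, adjusted p = 1.44e-09 by limma) was a call. Cpt1a therefore made up 87.5% and 87.4% of the sum of both paralogs in ferret and 69.0% and 69.3% in mouse astrocytes. Slc25a20, the carnitine-acylcarnitine carrier of the inner membrane, was higher in ferret astrocytes, at 47.4 and 48.0 FPKM against 21.1 in both mouse libraries, a difference of 1.14 (SE 0.0574, adjusted p = 3.20e-08 by limma). Cpt2, which reforms acyl-CoA inside mitochondria, had 19.4 and 19.5 FPKM in ferret and 18.1 and 19.2 in mouse astrocytes. Its difference of 0.05 had a 95% interval from -0.09 to 0.20 and an adjusted p of 0.432 by limma, and became 0.43 with equal library sums. With both proteins working in sequence, the ratio of Slc25a20 to Cpt2 was 2.45 and 2.47 in ferret and 1.17 and 1.09 in mouse libraries.

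The acyltransferases that handle short and medium chains were both lower in ferret astrocytes. Crot, which moves peroxisomal medium-chain products onto carnitine, had 5.30 and 5.08 FPKM in ferret and 30.6 and 32.7 in mouse astrocytes, a difference of -2.40 (SE 0.0681, adjusted p = 6.40e-10 by limma). Crat, the carnitine acetyltransferase, had 17.4 and 20.03 FPKM against 36.9 and 41.6. Its difference of -1.03 lay just past the limit and was no call with ferret replicate 1 left out (-0.93) or with mouse replicate 2 left out (-0.94).

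Among the acyl-CoA dehydrogenases, Acadl stood apart. This long-chain enzyme had 1.15 and 1.19 FPKM in ferret and 67.9 and 67.7 in mouse astrocytes. It was 57.8-fold lower in ferret astrocytes, a difference of -4.99 (SE 0.0650, adjusted p = 9.02e-12 by limma) and the largest of the 34 genes. Acadvl, the very-long-chain enzyme bound to the inner membrane, had 26.4 and 28.4 FPKM against 66.1 and 68.7, a difference of -1.27. Dvl2 on the opposite strand shares 42.9% of the exonic bases of mouse Acadvl, so the mouse value is uncertain if strand was not used. Acadm, the medium-chain enzyme, had 47.3 and 45.9 FPKM in ferret and 61.9 and 72.1 in mouse astrocytes, and its difference of -0.51 was no call. Acads, the short-chain enzyme, was called lower, at 5.45 and 5.73 against 18.2 and 18.5 FPKM. The chain-length series thus held 3 genes called lower and 1 gene that was not called, where 30.1% of all tested genes were called lower.

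Within the summed FPKM of Acadvl, Acadl, Acadm and Acads, Acadl made up 1.43% and 1.47% in ferret and 31.7% and 29.8% in mouse libraries. Acadm made up 58.9% and 56.5% in ferret and 28.9% and 31.7% in mouse libraries. The share of Acadvl was close in both, at 32.8% and 35.0% in ferret and 30.9% and 30.3% in mouse libraries. Acad9, which also assembles respiratory complex I, had 18.9 and 20.9 FPKM in ferret and 18.1 and 16.2 in mouse astrocytes, a difference of 0.20 (adjusted p = 0.0305 by limma) that is too small for a call. Acad11, an enzyme for very long chains and 4-hydroxy acids, had 15.6 and 13.9 FPKM against 16.9 and 17.4. Its sign depended on the scaling, with a difference of -0.20 as deposited, 0.17 with equal library sums and 0.20 after quantile normalization. Acad10 had 1.91 and 1.36 FPKM in mouse astrocytes and no ferret value. Mouse Acadl spans chr1:66830839-66863277 of GRCm38 (minus strand), with 12 exonic regions and no exonic base shared with another gene.

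Of the 5 genes compared for the later mitochondrial steps, 3 were called lower and 0 higher by limma. Of all tested genes, 30.1% were called lower and 13.1% higher. The other 2 genes had an unadjusted p under 0.05 by limma with higher ferret levels, as had 3317 of all 10204 tested genes. Hadha, the alpha subunit of the trifunctional protein, was the highest of the 34 genes in ferret astrocytes, at 111 and 123 FPKM, with 86.4 and 80.8 in mouse astrocytes. Hadh, the dehydrogenase for short and medium chains, had 77.0 and 76.8 FPKM in ferret and 68.7 and 70.1 in mouse astrocytes. The differences of 0.48 for Hadha and 0.15 for Hadh were not called. In both genes the ferret libraries lay above the mouse libraries, as in 35.1% of all tested genes. Acaa2, the mitochondrial thiolase that ends a round of shortening, had 17.6 and 18.3 FPKM against 36.5 and 39.0. Its difference of -1.03 was no call with mouse replicate 2 left out (-0.99). Eci2 and Decr1, which rearrange the double bonds of unsaturated fatty acids, were both called lower. Eci2, found in mitochondria and peroxisomes, had 26.0 and 26.8 FPKM in ferret and 62.2 and 66.7 in mouse astrocytes. Decr1, the mitochondrial dienoyl-CoA reductase, had 12.8 and 12.2 FPKM against 34.5 and 34.7, a difference of -1.40 (SE 0.0621, adjusted p = 1.29e-08 by limma). Of the genes with a mouse value only, Hadhb, the beta subunit of the trifunctional protein, had 100.4 and 103.9 FPKM. Echs1, the enoyl-CoA hydratase, had 44.6 and 48.4 FPKM, and Eci1, a mitochondrial isomerase, had 26.7 and 26.8. The ferret level of these 3 steps was not analysed here.

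The subunits of the electron transfer flavoprotein, which form a heterodimer, did not move together. Etfa had 23.1 and 23.8 FPKM in ferret and 67.8 and 72.3 in mouse astrocytes, a difference of -1.54 (SE 0.0608, adjusted p = 5.85e-09 by limma). Etfb had 97.5 and 105.1 FPKM in ferret and 100.8 and 91.0 in mouse astrocytes. Its difference of 0.08 had a 95% interval from -0.08 to 0.24 and an adjusted p of 0.301 by limma, and became 0.47 with equal library sums. Etfb was the only gene of the 34 whose libraries overlapped between species. Of all tested genes, 35.1% had both ferret libraries above both mouse libraries and 59.0% had them below. The ratio of Etfb to Etfa was 4.21 and 4.42 in ferret and 1.49 and 1.26 in mouse libraries. Other annotated genes on the same strand share 58.2% of the exonic bases of mouse Etfb, so its mouse value is uncertain. Etfdh, the membrane oxidoreductase that passes the electrons to ubiquinone, had 25.1 and 26.8 FPKM against 41.1 and 44.9, a difference of -0.71 that was not called.

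Peroxisomal genes ran in both directions. Ehhadh, the bifunctional enzyme of the inducible peroxisomal pathway, had 15.5 and 14.9 FPKM in ferret and 1.73 and 1.48 in mouse astrocytes. It was 9.46-fold higher in ferret astrocytes, a difference of 2.64 (SE 0.0792, adjusted p = 8.92e-10 by limma) and the largest in that direction. Its percentile among the shared symbols was 76.6 and 75.4 in ferret and 31.9 and 30.7 in mouse libraries. Acox3, an oxidase of branched-chain substrates, was called lower, at 6.13 and 6.82 FPKM against 18.1 and 18.5. Abcd2, a transporter of very long and polyunsaturated acyl-CoA, was the lowest of the 34 genes in ferret astrocytes, at 0.649 and 0.522 FPKM, with 2.67 and 2.58 in mouse astrocytes. Its difference of -1.19 became -1.998 with a pseudocount of 0.1, as its FPKM lies near the pseudocount. Abcd3, the most abundant peroxisomal transporter of the list, had 47.5 and 44.7 FPKM against 37.5 and 38.2, a difference of 0.28 that was not called. Hsd17b4, the D-bifunctional protein, had 58.0 and 62.5 FPKM in mouse astrocytes and no ferret value. The partner of Ehhadh at the same step was therefore not compared. Mouse Ehhadh spans chr16:21761287-21787807 of GRCm38 (minus strand), with 7 exonic regions and no exonic base shared with another gene.

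Neither nuclear receptor of the list was called by limma, and 1 of the 2 had an unadjusted p under 0.05. Ppara, the receptor that induces fatty acid oxidation genes in liver, was low in both species, at 2.37 and 2.05 FPKM in ferret and 1.31 and 1.23 in mouse astrocytes. Its difference was 0.50 (SE 0.0828, adjusted p = 2.67e-04 by limma). Ppard, the broadly expressed member of the family, had 11.3 and 12.6 FPKM in ferret and 10.0 and 11.2 in mouse astrocytes, a difference of 0.16 with a 95% interval from -0.02 to 0.34 (adjusted p = 0.0870 by limma). With equal library sums it was 0.52.

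**Figure D4:**
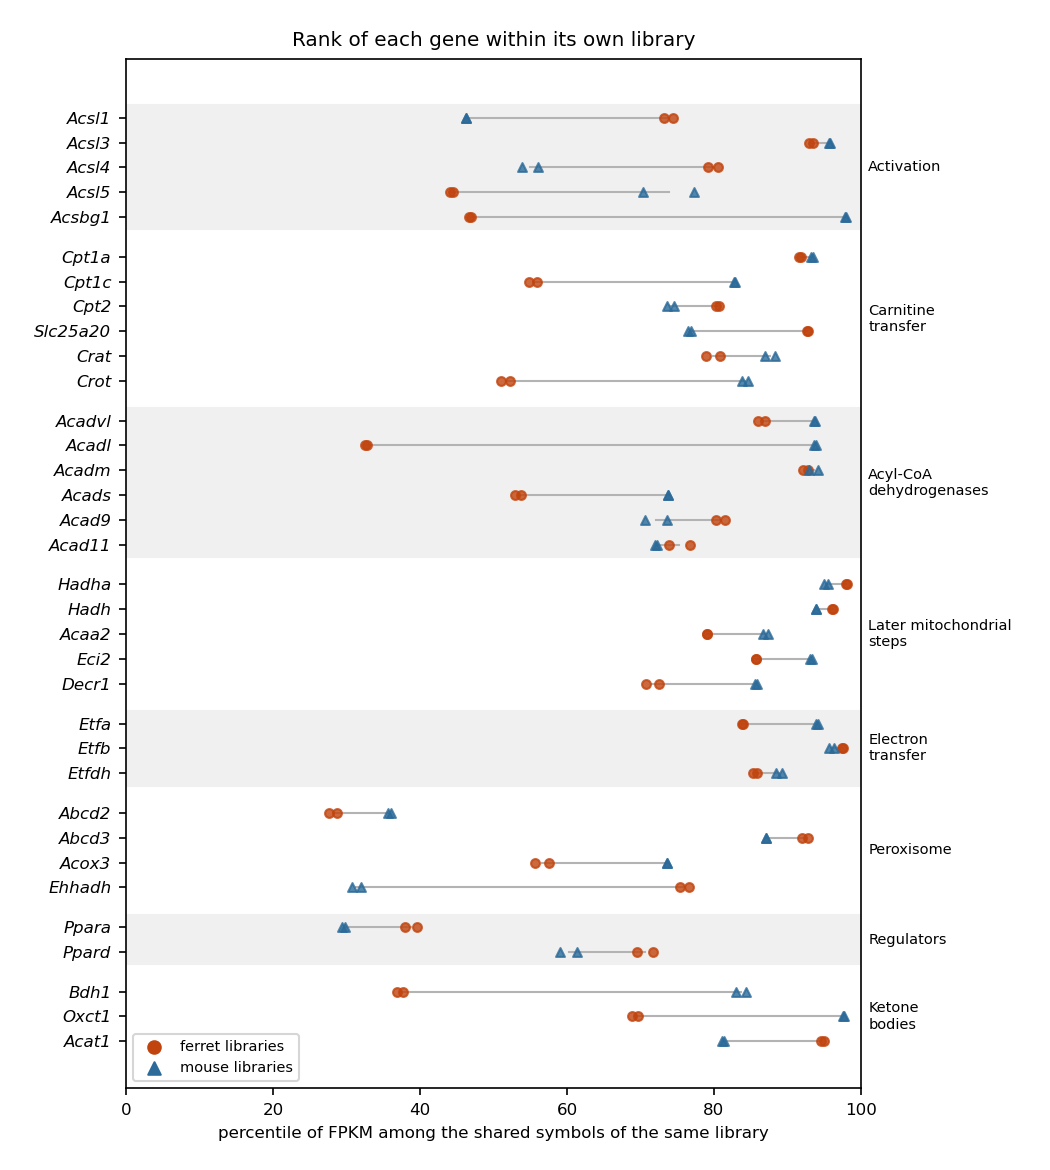
Percentile of the FPKM of each gene among the 13373 shared symbols of the same library, a rank that does not move with the scaling of a library. Circles are ferret and triangles mouse libraries, and lines join the species means. Acadl lies at the 32.5th and 32.8th percentile in ferret and at the 93.8th and 93.5th in mouse libraries. Hadha, Hadh, Etfb, Acsl3 and Acadm lie above the 92nd in every library.

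The order of levels therefore differed between the species. In ferret astrocytes Hadha, Etfb and Hadh led the 34 genes and stood apart from their next neighbours in both libraries. In mouse astrocytes Acsbg1 and Oxct1 led and stood apart in the same way, while Etfb and Acsl3, next in order, overlapped. Of the 33 pairs of neighbours in order, 22 did not overlap in ferret and 17 did not overlap in mouse astrocytes. The summed FPKM of the 34 genes was 890 and 922 in ferret and 1474 and 1514 in mouse libraries. As a share of the shared symbols this was 0.391% and 0.390% in ferret against 0.490% and 0.491% in mouse libraries. By step, the sum was 2.98-fold lower in ferret astrocytes for activation, 2.54-fold lower for ketone bodies and 2.21-fold lower for the acyl-CoA dehydrogenases. The sum of the later mitochondrial steps was 1.15-fold lower, whereas its share of the shared symbols lay higher in ferret libraries, at 0.108% and 0.109% against 0.0959% and 0.0945%. The sum of the peroxisomal genes was 1.13-fold higher. The first 3 of these sums rest largely on Acsbg1, Oxct1 and Acadl, the genes with the largest differences.

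**Figure D5:**
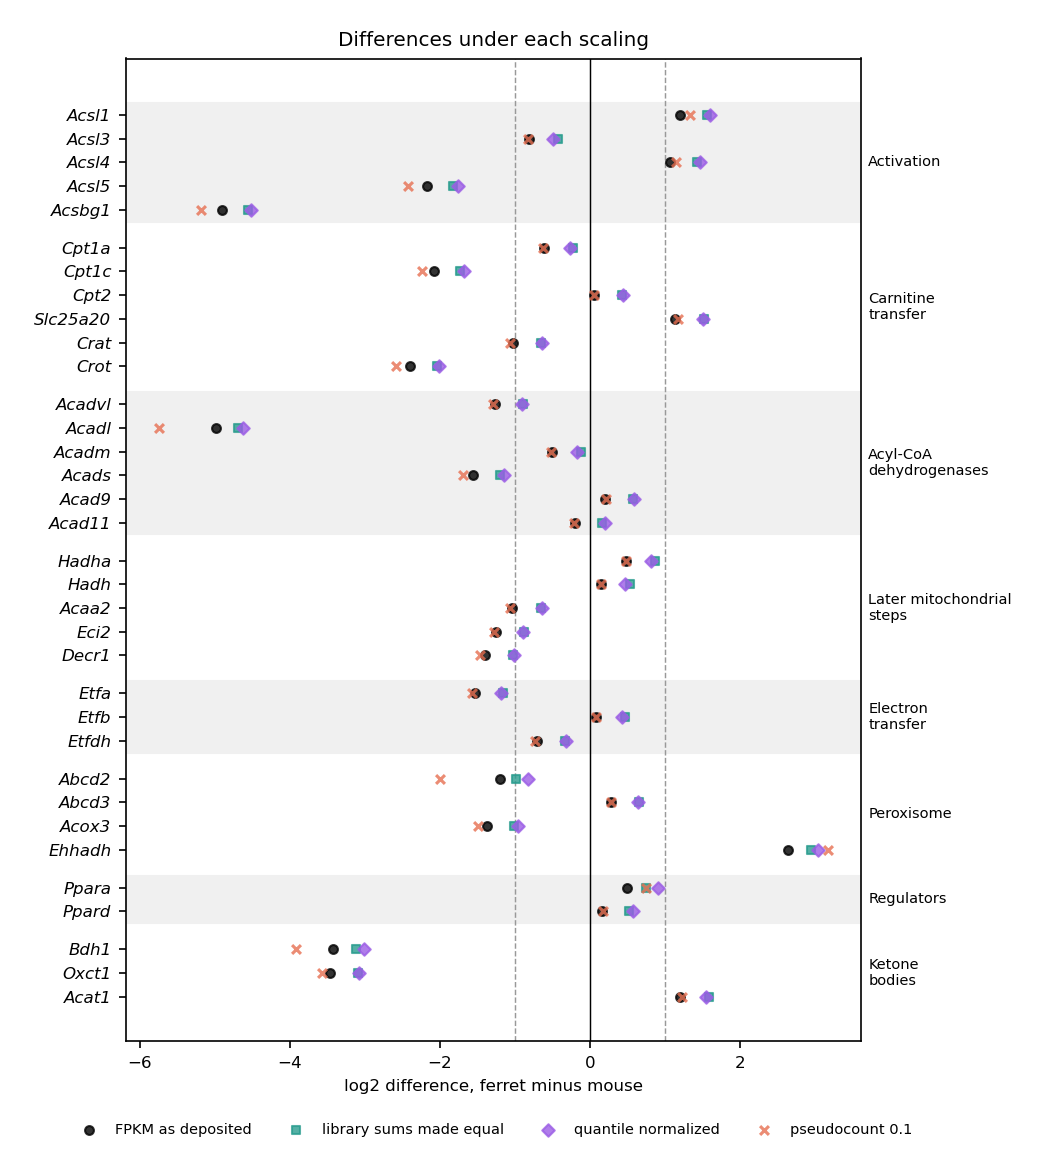
Ferret minus mouse difference on the log2 scale for the 34 genes with FPKM as deposited (circles), with the 4 library sums made equal (squares), after quantile normalization (diamonds) and with a pseudocount of 0.1 in place of 1 (crosses). Equal sums and quantile normalization move all points to the right, Acad11 changes sign, and the genes beyond -2 as deposited include Acadl, Acsbg1, Oxct1, Bdh1, Crot, Acsl5 and Cpt1c.

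A further list of 53 genes around these pathways held 42 with a value in both species, of which 38 passed the filter. Of these 38, 4 were called higher and 17 lower in ferret astrocytes, with a median difference of -0.61, where 13.1% and 30.1% of all tested genes were called and their median was -0.35. With equal library sums 4 were called higher and 12 lower (median -0.28), and after quantile normalization 5 and 12 (median -0.22). The 4 higher genes were Angptl4, Bbox1, Bdh2 and Aldh9a1. Angptl4, a secreted inhibitor of lipoprotein lipase and a known target of the peroxisome proliferator-activated receptors, had 185 and 210.3 FPKM in ferret and 6.60 and 6.41 in mouse astrocytes, a difference of 4.73 (SE 0.0711, adjusted p = 1.94e-11 by limma). Bbox1 and Aldh9a1 encode late steps of carnitine synthesis, whereas 4 of the 7 tested genes of uptake and carnitine supply were called lower. Bbox1 had 2.49 and 1.98 FPKM against 0.390 and 0.436, a difference of 1.19 that became 2.18 with a pseudocount of 0.1, and Aldh9a1 26.5 and 27.9 against 13.0 in both mouse libraries. Bdh2, a cytosolic dehydrogenase, had 20.5 and 19.9 FPKM against 7.996 and 9.15. The difference of Aldh9a1 lay just past the limit, and without ferret replicate 2 it was 0.97 and no call.

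On the log2(FPKM + 1) scale the 4 lowest were Ppargc1a, Plin2, Scp2 and Mcee. Cd36, a fatty acid transporter at the cell surface, was called lower with a larger fold, 64.4 as a ratio of means, at 0.0580 and 0.0583 FPKM against 4.28 and 3.21, and was chosen after its values were seen. Its log2(FPKM + 1) difference was -2.16, and with a pseudocount of 0.1 it was the lowest of the list at -4.59. Ppargc1a, the coactivator of mitochondrial biogenesis, had 0.334 and 0.259 FPKM in ferret and 7.09 and 8.40 in mouse astrocytes, a difference of -2.75 (SE 0.0920, adjusted p = 1.85e-09 by limma) that became -4.31 with a pseudocount of 0.1. Plin2, a coat protein of lipid droplets, had 17.8 and 20.3 FPKM against 136 and 125. Scp2, which includes a peroxisomal thiolase for branched chains, had 30.6 and 28.3 FPKM against 181 and 187. Mcee, an enzyme of propionate breakdown, had 7.88 and 6.49 FPKM against 35.3 and 38.3. The activity of the peroxisome proliferator-activated receptors in these cells was not tested.

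By role, uptake and carnitine supply had 2 genes called higher and 4 lower among 7 tested. Of all tested genes, 13.1% were called higher and 30.1% lower, which is the background for each role. The peroxisomal genes of this list had 0 called higher and 4 lower among 8 by limma, while 2 had an unadjusted p under 0.05 with higher ferret levels. Malonyl-CoA genes with Cpt1b, and thioesterases, had 0 calls by limma among 3 and 2 tested, and all 5 had an unadjusted p under 0.05. Such a p is common here, as 3317 of all 10204 tested genes had it with higher and 5762 with lower ferret levels. Ketone bodies and their transport had 1 higher and 2 lower among 5, and propionate and amino acid breakdown had 0 higher and 4 lower among 7 by limma, while 1 had an unadjusted p under 0.05 with a higher ferret level. The regulators and their targets had 1 higher and 3 lower among 6. Of the 4 genes under the filter, Acox2, Pparg and Ppargc1b are named here after their values were seen. Pparg had 0.288 and 0.254 FPKM against 0.991 and 0.779, and Ppargc1b 0.414 and 0.364 against 0.127 and 0.109. Acox2 was listed at 0 in both ferret libraries and had 0.756 and 0.489 FPKM in mouse astrocytes.

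Genes of this list with a value in a single species were not compared. The monocarboxylate carrier Slc16a1, which also carries ketone bodies, had 84.3 and 87.96 FPKM in mouse astrocytes. The peroxisomal thiolase is 1 symbol in the ferret, Acaa1 with 24.2 and 25.5 FPKM, and 2 in the mouse, Acaa1a with 38.1 and 39.5 and Acaa1b with 4.74 in both libraries. Phyh, the hydroxylase that starts phytanic acid breakdown, had 50.3 and 52.8 FPKM in mouse astrocytes. Mouse levels of the thioesterases were 37.1 and 40.7 for Acot1, 5.76 and 5.67 for Acot2, 0.313 and 0.208 for Acot4, 26.9 and 28.2 for Acot7, and 47.8 and 46.5 for Acot13. Slc27a6 had 0.0759 and 0.0211 FPKM.

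The cultures were checked against markers of the labelled cell type and of other cells. Gfap, which defines astrocytes, had 1481 and 1522 FPKM in ferret and 1429 and 1546 in mouse astrocytes. Aldh1l1, another astrocyte marker, was called lower, at 10.1 and 9.60 FPKM in ferret and 81.2 and 84.3 in mouse astrocytes. Of 11 astrocyte markers, 1 was called higher and 7 lower in ferret astrocytes, and Gfap was among the 3 not called. Of all tested genes, 13.1% were called higher and 30.1% lower, which is the background for each marker list. The summed FPKM of the astrocyte markers was 4762 and 4947 in ferret against 7401 and 7911 in mouse astrocytes. All 9 microglial markers were lower, with sums of 6.95 and 5.93 against 499 and 485, and Cx3cr1 listed at 0 in both ferret libraries. The microglial marker Aif1 had 0.0495 and 0.0465 FPKM in ferret and 12.6 and 10.6 in mouse astrocytes. All 8 meningeal fibroblast markers were lower, with sums of 126 and 111 against 1501 and 1481. Oligodendrocyte lineage markers had 3 called higher and 0 lower of 8 tested by limma, where 2 had an unadjusted p under 0.05 with lower ferret levels. Their sums were 169 and 188 against 69.0 in both mouse libraries. Sox10, which was called higher, had 26.3 and 30.9 FPKM in ferret and 0.231 and 0.304 in mouse astrocytes. Neuronal markers had 3 higher of 3 tested, with sums of 12.2 and 13.5 against 2.196 and 2.40, and Rbfox3, which defines neurons, stood at 0 and 0.0350 FPKM in ferret and at 0.0667 and 0.0839 in mouse astrocytes. These lists move with species, as do all differences above, and their part in the results for fatty acid and ketone genes was not tested. In bulk RNA, fewer cells of a type and less RNA per cell cannot be told apart.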

How the data were processed

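Per the study's methods, the authors aligned reads with STAR (2.7.0f) to the Ensembl genome of each species. The labels name the mouse build GRCm38 for the ferret samples as well, and the text follows the methods on this point. Cufflinks (2.2.1) FPKM were deposited per gene and library, unfiltered and without counts. The depth cannot be read from these values, and read counts in the study's supplement were not used here. Steps between low FPKM values gave depth ratios of replicate 1 to 2 of 1.17 (ferret) and 0.835 (mouse), and the number of libraries limits the precision.

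Symbols were matched without regard to case, taking the value with the highest species mean. log2(FPKM + 1) was compared with limma (3.58.1, R 4.3.3, trended empirical Bayes) for 10204 genes that averaged 1 FPKM or more in either species, with Benjamini-Hochberg adjustment. The fit was tested on simulated data. Duplicates differed by a median of 0.081 (ferret) and 0.065 (mouse) on the log2 scale.

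The genes, lists and alternatives were chosen with earlier results of these data known. All 40 genes are named, with the 4 called genes of the wider list that differed most in each direction on the log2(FPKM + 1) scale, and Cd36 was added after its values were seen. Positions are those of GENCODE M21 on GRCm38, the authors' build in another release. Sequences and a ferret genome were not used here.

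As alternatives, the pseudocount was set to 0.1, the filter was dropped, library sums were made equal, values were quantile normalized, rows sharing a symbol were summed, the replicate number was added as a block, and each library was left out in turn. The replicate numbers shared by the species only name libraries. A gene of the wider list under the filter is not reported here.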

Additional observations from a re-analysis of the deposited data

How the results depend on the processing

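All 34 genes kept their direction under the 10 alternatives except Acad11, which reversed from -0.20 to 0.17 with equal library sums and to 0.20 after quantile normalization. Genes of the list called lower in ferret astrocytes fell from 16 to 10 after quantile normalization, which shifts all differences towards the ferret, and ranged from 14 to 16 with each library left out in turn. The 5 calls in the other direction were kept under all 10 alternatives. Over all tested genes, those called higher rose from 1336 to 2110 after quantile normalization. With the replicate number of the labels as a block, 5 genes of the list were called higher and 16 lower, as without it, and the block changed no call of the list. The numbers only name duplicates, since the libraries of the species come from different animals, and replicate deviations of the species correlated at 0.0099 over 10204 genes. A library left alone in a species was assumed to vary like the others. Levels under about 1 FPKM, as for Abcd2, depend most on the pseudocount.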
